A study of Drosophila melanogaster with 4 samples.

Results

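The genes described here encode the heterochromatin protein 1 (HP1) family, the proteins that bind HP1, the enzymes that methylate lysine 9 of histone H3 (H3K9), and a lamin of the nuclear envelope. They were taken by name: Su(var)205's product is HP1a, and the others are HP1b, HP1c, Su(var)2-HP2, Su(var)3-7, Su(var)3-9, egg, wde, G9a and Lam. By the Ensembl annotation (BDGP6 assembly) Su(var)205's locus and Lam lie on chromosome arm 2L, HP1b and G9a on X, HP1c, Su(var)3-7 and Su(var)3-9 on 3R, and Su(var)2-HP2, egg and wde on 2R. All 10 had a row among the 15495 of the deposited expression table. RNA had been sequenced from intestinal stem cells of Drosophila melanogaster, which divide to replace worn-out cells of the gut lining, sorted by flow cytometry from 100 dissected guts per library. The Piwi RNAi group held 2 libraries of cells in which RNA interference had been directed against piwi for 7 days at 29 °C. The mCherry RNAi group held 2 libraries with interference against mCherry, a fluorescent protein that flies do not have, for the same time and temperature. The source label of the mCherry RNAi libraries also names yw and that of the Piwi RNAi libraries does not. No source used here gives the driver of the hairpins, the age of the flies or how the genetic backgrounds relate.

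Heterochromatin is the compact, gene-poor chromatin around centromeres and over transposons. Methyltransferases place methyl groups on H3K9, HP1 proteins bind the methylated tail through their chromodomain, and HP1 in turn brings in further methyltransferase, so that the mark spreads and is kept through division. In the nuclei of fly ovarian cells Piwi, guided by piRNAs, directs this machinery to transposons, and egg, wde, HP1a and Su(var)2-10 take part in the silencing. Lamins line the inside of the nuclear envelope, where much heterochromatin is tethered.

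None of the 10 genes passed the test between Piwi RNAi and mCherry RNAi. Values were FPKM, fragments scaled to transcript length and library depth, and the test was a limma-trend fit on log2(FPKM + 1) over the 8313 genes that averaged 1 FPKM or more, called at an adjusted p under 0.05. Across these genes 98 were called, or 1.18%. At an unadjusted p under 0.05, 4 of the 10 were higher in Piwi RNAi (Su(var)3-7, Su(var)2-HP2, Lam and egg), against 21.7% of all tested genes. After scaling the libraries by the median of ratios 1 of the 10 was, against 595 of all 8313 tested genes. With 2 libraries in each group an exact permutation test of a single gene cannot give a two-sided p below 0.333, so no such test was run.

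All 10 genes had a positive log2 difference, Piwi RNAi minus mCherry RNAi, from 0.09 for Su(var)3-9 to 1.17 for Su(var)3-7, against 70.0% of all tested genes. After scaling the libraries by the median of ratios 6 of the 10 had one, against 49.4% of all tested genes. In 8 of the 10, on the deposited scale, both Piwi RNAi libraries lay above both mCherry RNAi libraries, the exceptions being HP1b and Su(var)3-9. The same held for 51.5% of all tested genes. Without mCherry RNAi replicate 1 the count was again 8, against 58.6% of tested genes. The median difference of the 10 was 0.71, beside 0.37 for all tested genes, a general shift that any single difference has to be read against. Without mCherry RNAi replicate 1 these medians were 0.39 and 0.27. After median of ratios scaling the all-gene median was −0.01 and that of the 10 was 0.32. In that scaling 5 of the 10 were higher in both Piwi RNAi libraries (HP1c, Su(var)2-HP2, Su(var)3-7, egg and Lam), against 26.9% of tested genes. One, wde, was then lower in both, against 26.5%. The scaled groups of HP1c nearly met, at 11.05 in Piwi RNAi replicate 2 and 10.76 in mCherry RNAi replicate 2. Those of Su(var)2-HP2 also did, at 11.39 in Piwi RNAi replicate 2 and 10.89 in mCherry RNAi replicate 1.

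**Figure D1:**
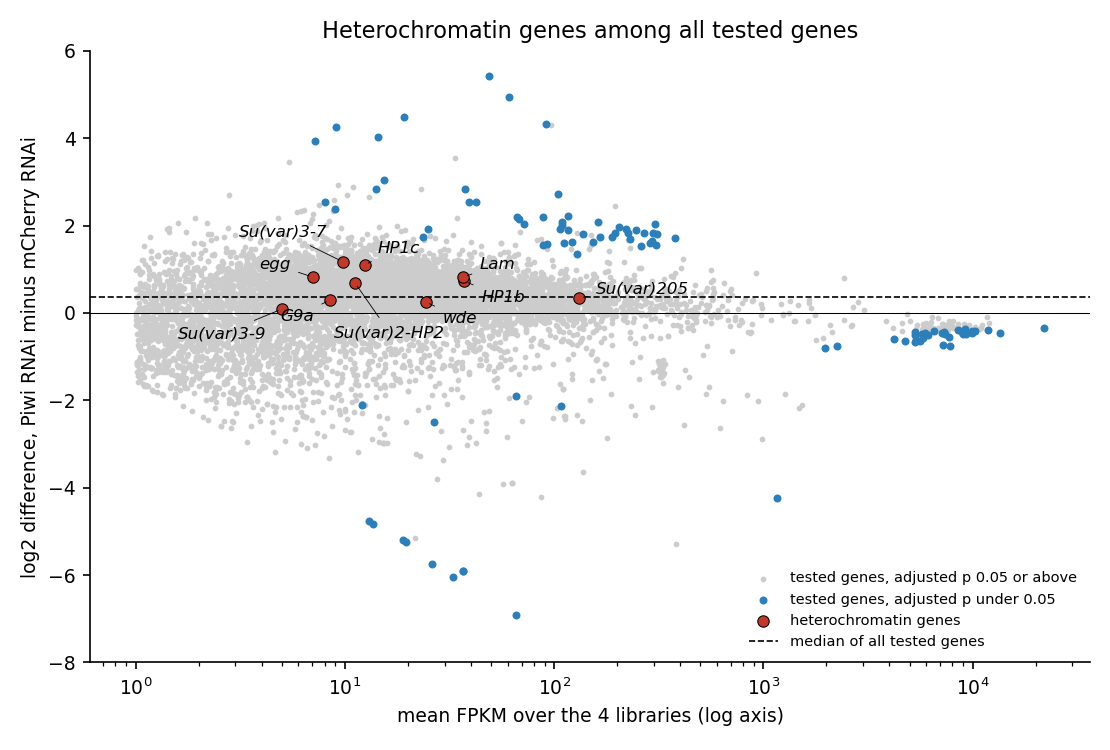
Log2 difference, Piwi RNAi minus mCherry RNAi, against mean FPKM (log axis) for the 8313 tested genes. Grey points did not pass the test, blue points are the 98 called genes, red points are the heterochromatin genes, and the dashed line is the all-gene median of 0.37. The red points lie between 0.09 and 1.17, inside the grey cloud.

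The targeted gene, piwi, was near the detection limit and was not tested. It had 0.208 and 0.442 FPKM in Piwi RNAi replicates 1 and 2, against 0.495 and 1.94 FPKM in mCherry RNAi replicates 1 and 2. Depth was estimated from the steps of the lowest values at 1620000 to 2290000 fragments per library, so the piwi values stand for about 1 and 3 fragments against 3 and 12. The FPKM columns summed to 900475 and 928972 for Piwi RNAi, against 1044487 and 1050749 for mCherry RNAi. The stem cell and enteroblast markers esg, Dl, Sox21a, klu, zfh2, Sox100B and spdo were above 0 in every library and summed to 890.4 and 848.6 FPKM in Piwi RNAi, against 585.7 and 725.6 FPKM in mCherry RNAi. Of these 7 genes 5 were higher in both Piwi RNAi libraries, against 51.5% of all tested genes, and Dl and Sox100B overlapped. After median of ratios scaling 3 were higher in both, against 26.9% of all tested genes. Dl and Sox100B were then lower in both, against 26.5%. Of 14 enterocyte markers, genes of the absorptive gut cells, none was listed at 0 in any library. Their sum was 1885 and 928.7 FPKM in Piwi RNAi, against 19514 and 1515 FPKM in mCherry RNAi. In this sum mCherry RNAi replicate 1 stood apart. Only 1 of the 14 had a positive log2 difference, against 70.0% of all tested genes. Lower in both Piwi RNAi libraries were 4, against 1079 of all 8313 tested genes, while 0 were higher in both and 10 overlapped. After median of ratios scaling 4 were again lower in both, against 26.5% of all tested genes. In mCherry RNAi replicate 1 the visceral muscle genes wupA and TpnC47D had 11.3 and 6.11 FPKM. Both were listed at 0 in the other 3 libraries. By contrast up had 0.473 and 0.653 FPKM in Piwi RNAi, against 21.3 and 6.24 FPKM in mCherry RNAi. In the same order vn had 18.7 and 5.22 FPKM, against 1.17 and 3.83 FPKM. Of 11 tested muscle genes 2 were higher in both Piwi RNAi libraries, against 51.5% of all tested genes. Another 2 were lower in both, against 1079 of all 8313 tested genes. The median of the 14 muscle genes on the log2(FPKM + 1) scale was 0.73 and 0.54 in Piwi RNAi, against 3.22 and 0.59 in mCherry RNAi. Their summed level was mostly Tm1, at 271.0 and 280.3 FPKM in Piwi RNAi against 199.6 and 247.3 FPKM in mCherry RNAi. Markers of the hormone-secreting enteroendocrine cells, 11 genes, summed to 269.1 and 483.2 FPKM in Piwi RNAi, against 2838 and 5596 FPKM in mCherry RNAi, and Dh31 was at 0 in replicate 2 of either group. Of 9 tested enteroendocrine genes 7 were lower in both Piwi RNAi libraries, against 1079 of all 8313 tested genes, and CCHa1 and CCHa2 overlapped. One of them, CG13565, which encodes the neuropeptide orcokinin, was called, with a log2 difference of −4.25 (limma adjusted p = 0.0313). That call was lost with any library left out, with no filter, without a trend and with median of ratios scaling, and its adjusted p-values under the alternatives reached 0.477. In such sorted bulk RNA, fewer cells of a type and less RNA per cell cannot be told apart.

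Among the HP1 proteins, HP1a is the main one of pericentric heterochromatin. Su(var)205's level (FBgn0003607) was 135.5 and 159.3 FPKM in Piwi RNAi, against 98.5 and 134.8 FPKM in mCherry RNAi. The groups did not overlap, but the lower Piwi RNAi library and the higher mCherry RNAi library nearly met. By group means the level was 147.4 ± 16.8 FPKM in Piwi RNAi and 116.7 ± 25.7 FPKM in mCherry RNAi (SD, n = 2 each), a 1.26-fold difference. The log2 difference was 0.35 ± 0.22 (SE; 95% interval −0.22 to 0.91; limma adjusted p = 0.327). It was near the all-gene median, at the 48.8th percentile of all tested genes, and −0.06 after median of ratios scaling. Without mCherry RNAi replicate 1 it was 0.12.

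HP1b (FBgn0030082), a paralog found in both euchromatin and heterochromatin, had 54.8 and 36.9 FPKM in Piwi RNAi, against 18.2 and 39.2 FPKM in mCherry RNAi. The groups overlapped, since mCherry RNAi replicate 2 lay above Piwi RNAi replicate 2. The log2 difference was 0.73 ± 0.43 (95% interval −0.39 to 1.84; adjusted p = 0.306), and it rested largely on mCherry RNAi replicate 1, being 0.19 without that library. HP1c (FBgn0039019), the paralog that binds active chromatin together with the zinc finger proteins woc and row, had 21.7 and 12.7 FPKM in Piwi RNAi, against 5.14 and 10.1 FPKM in mCherry RNAi. Both Piwi RNAi libraries were above both mCherry RNAi libraries, though Piwi RNAi replicate 2 was closer to mCherry RNAi replicate 2 than to its own replicate. The mean was 17.2 ± 6.34 FPKM in Piwi RNAi and 7.63 ± 3.51 FPKM in mCherry RNAi (SD, n = 2 each), 2.26-fold apart, with a log2 difference of 1.10 ± 0.42 (95% interval −0.0018 to 2.19; adjusted p = 0.188). Without mCherry RNAi replicate 1 the difference was 0.67.

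HP1c is a short gene with a single annotated transcript of 986 nt, and its values correspond to about 30.1 and 24.9 fragments in Piwi RNAi, against 9 and 18 in mCherry RNAi. Pooled within groups, the depth-scaled ratio was 2.15 (exact Clopper-Pearson 95% bounds 1.33 and 3.54). Such bounds cover counting error alone and leave out the spread between pools of flies. The annotation places 16.2% of its exonic bases under CG17141 on the opposite strand, and no source used here gives the strand setting of the authors' counting. CG17141 had 5.30 and 7.46 FPKM in Piwi RNAi, against 3.14 and 6.69 FPKM in mCherry RNAi. That neighbour was highest in Piwi RNAi replicate 2 and HP1c in Piwi RNAi replicate 1.

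**Figure D2:**
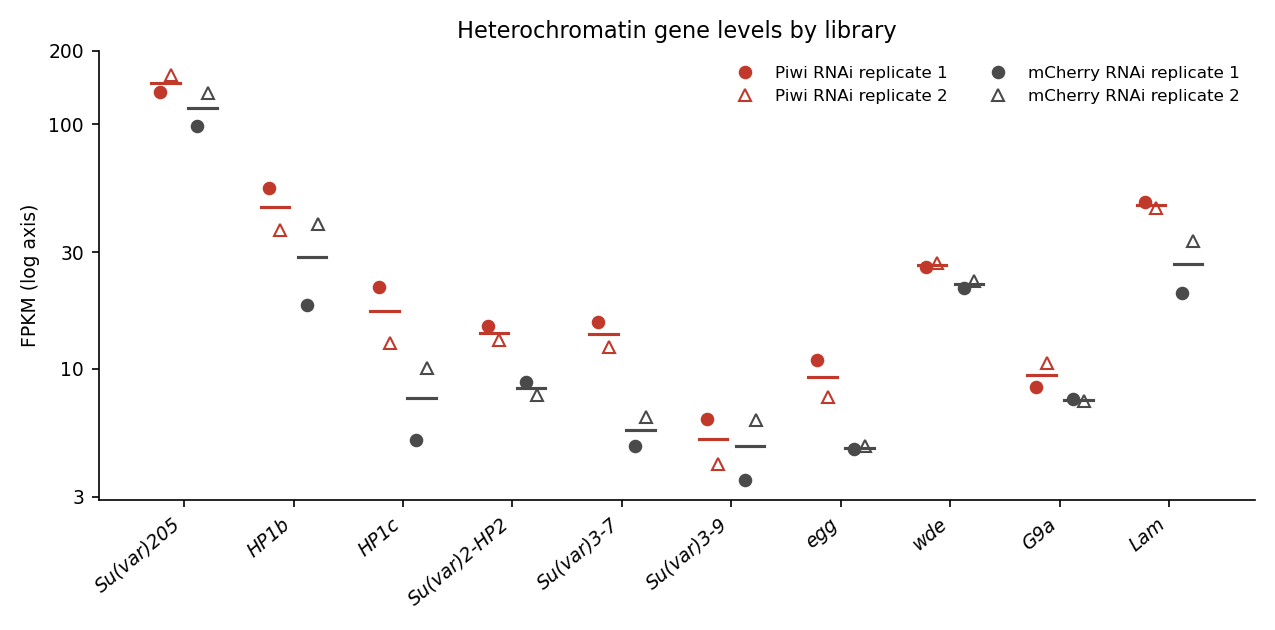
FPKM (log axis) of each heterochromatin gene in each library, with Piwi RNAi in red and mCherry RNAi in grey, filled circles for replicate 1, open triangles for replicate 2, and a bar at the mean of each group. The groups overlap for HP1b and Su(var)3-9 and are separate for the other genes.

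Of the HP1-binding proteins, Su(var)3-7 (FBgn0003598) had the largest difference of the 10. This zinc finger protein binds HP1a and spreads or retracts heterochromatin with its dose. In Piwi RNAi it had 15.6 and 12.3 FPKM, against 4.85 and 6.39 FPKM in mCherry RNAi. The lower Piwi RNAi library was well above the higher mCherry RNAi library, and the gap between the groups exceeded both gaps between replicates. Means were 13.9 ± 2.33 FPKM in Piwi RNAi and 5.62 ± 1.09 FPKM in mCherry RNAi (SD, n = 2 each), a 2.47-fold difference. The log2 difference of 1.17 ± 0.28 had a 95% interval of 0.45 to 1.89 and an unadjusted p of 0.00885 from limma, but did not pass after adjustment (adjusted p = 0.135). It lay at the 94.0th percentile of all tested genes, and across the alternatives it ran from 0.81 to 1.34 with adjusted p-values of 0.102 to 0.547. Su(var)3-7 shares 13.7% of its exonic bases with TBC1D5 on the opposite strand. TBC1D5 had 14.7 and 13.2 FPKM in Piwi RNAi, against 10.1 and 10.8 FPKM in mCherry RNAi, a log2 difference of 0.38.

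Su(var)2-HP2 (FBgn0026427), a large protein that binds the chromoshadow domain of HP1a, had 14.9 and 13.1 FPKM in Piwi RNAi, against 8.83 and 7.85 FPKM in mCherry RNAi. Replicates lay close together and the groups apart, with a 1.68-fold ratio of means. Its log2 difference was 0.68 ± 0.24 (95% interval 0.07 to 1.30; adjusted p = 0.171). With any library left out the difference stayed between 0.60 and 0.77, and it was 0.31 after median of ratios scaling. No exon of another gene lies over Su(var)2-HP2 in the annotation.

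Of the H3K9 methyltransferases, egg had the largest difference. Eggless (egg, FBgn0086908), the fly SETDB1, which acts with Piwi in the ovary and is needed in the soma as well, had 10.9 and 7.70 FPKM in Piwi RNAi, against 4.69 and 4.86 FPKM in mCherry RNAi. Both mCherry RNAi libraries were almost equal and both Piwi RNAi libraries higher. The mean was 9.30 ± 2.27 FPKM in Piwi RNAi and 4.78 ± 0.117 FPKM in mCherry RNAi (SD, n = 2 each), 1.95-fold apart. The log2 difference was 0.82 ± 0.29 (95% interval 0.06 to 1.58; adjusted p = 0.176) and 0.46 after median of ratios scaling. With about 67.3 and 67.1 fragments in Piwi RNAi against 36.4 and 38.5 in mCherry RNAi, the pooled ratio was 1.91 with a counting interval of 1.43 to 2.57. An antisense RNA gene, CR44067, covers 16.0% of the exonic bases of egg and was not analysed here.

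Windei (wde, FBgn0027499), the partner that egg needs to methylate H3K9 in the fly germline, differed little. It had 26.1 and 27.0 FPKM in Piwi RNAi, against 21.4 and 23.0 FPKM in mCherry RNAi. The groups were separate and the replicates close, and the log2 difference was 0.25 ± 0.20 (95% interval −0.27 to 0.77; adjusted p = 0.420). Relative to the all-gene median it was lower, and it was −0.14 after median of ratios scaling.

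Su(var)3-9 (FBgn0263755), the enzyme that methylates H3K9 in pericentric heterochromatin, was the lowest of the 10 genes in 3 of 4 libraries. It had 6.25 and 4.07 FPKM in Piwi RNAi, against 3.52 and 6.19 FPKM in mCherry RNAi. Each group held a high and a low library and the groups overlapped. The log2 difference was 0.09 ± 0.39, with a wide 95% interval of −0.93 to 1.11 (adjusted p = 0.884). About 22.9 and 21 fragments in Piwi RNAi stood against 16.2 and 29 in mCherry RNAi, a pooled ratio of 1.03 with a counting interval of 0.664 to 1.597.

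Su(var)3-9 is nested with the translation initiation factor gene eIF-2gamma: both transcripts start with the same exons, and 14.8% of the exonic bases of Su(var)3-9 are shared on the same strand. Reads in those exons cannot be assigned to either gene by position. eIF-2gamma had 122.6 and 121.7 FPKM in Piwi RNAi, against 95.04 and 105.9 FPKM in mCherry RNAi, so Su(var)3-9 was listed at 5.10% and 3.35% of its level in Piwi RNAi and at 3.70% and 5.84% in mCherry RNAi. The level of Su(var)3-9 is therefore uncertain. The log2 difference of eIF-2gamma was 0.28 (adjusted p = 0.291).

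G9a (FBgn0040372), which methylates H3K9 mainly in euchromatin and which flies can live without, had 8.45 and 10.5 FPKM in Piwi RNAi, against 7.57 and 7.43 FPKM in mCherry RNAi. The mCherry RNAi libraries were nearly equal and the Piwi RNAi libraries a little higher. The log2 difference was 0.30 ± 0.25 (95% interval −0.36 to 0.96; adjusted p = 0.447), below the all-gene median, and it was −0.07 after median of ratios scaling. It was 0.15 without Piwi RNAi replicate 2 and 0.44 without Piwi RNAi replicate 1.

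Lam (FBgn0002525) encodes the B-type lamin Dm0, present in most fly cells. In Piwi RNAi it had 48.0 and 45.5 FPKM, against 20.4 and 33.3 FPKM in mCherry RNAi. The Piwi RNAi libraries lay close together and above both mCherry RNAi libraries, of which replicate 1 was much the lower. The mean was 46.8 ± 1.83 FPKM in Piwi RNAi and 26.9 ± 9.18 FPKM in mCherry RNAi (SD, n = 2 each), 1.74-fold apart, with a log2 difference of 0.82 ± 0.29 (95% interval 0.06 to 1.57; adjusted p = 0.175). Without mCherry RNAi replicate 1 the difference was 0.47, and it was 0.42 after median of ratios scaling. LamC, the A-type lamin, had 221.1 and 214.3 FPKM in Piwi RNAi, against 226.4 and 212.1 FPKM in mCherry RNAi. The LamC groups overlapped, and its log2 difference was −0.01 (95% interval −0.35 to 0.34; adjusted p = 0.962), or −0.42 after median of ratios scaling.

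**Figure D3:**
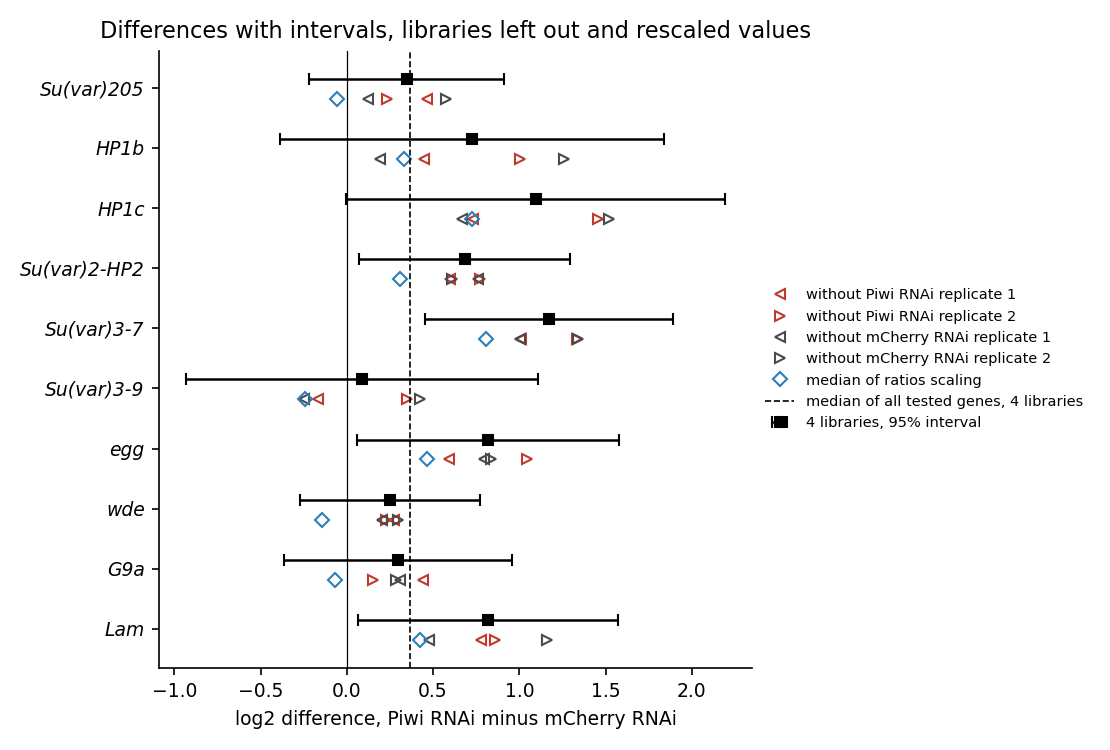
Log2 difference of each gene, Piwi RNAi minus mCherry RNAi, with its 95% limma interval (black squares and bars), the values with each library left out (triangles) and the value after median of ratios scaling (blue diamonds). The dashed line is the all-gene median of 0.37. The interval lies above 0 for Su(var)2-HP2, Su(var)3-7, egg and Lam, and no gene passed after adjustment.

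Replicates of the same group differed by very unequal amounts from gene to gene. The difference between groups exceeded the larger gap between replicates in 7 of the 10 genes, against 49.5% of all tested genes. The exceptions were the genes of HP1a, HP1b and Su(var)3-9. HP1b had a gap of −1.06 on the log2(FPKM + 1) scale between mCherry RNAi replicates 1 and 2, and HP1c a gap of −0.85. Both were also higher in Piwi RNAi replicate 1 than in replicate 2, by 0.56 and 0.73, and Su(var)3-9 had gaps of the same signs, 0.52 in Piwi RNAi and −0.67 in mCherry RNAi. By contrast wde had gaps of −0.04 in Piwi RNAi and −0.10 in mCherry RNAi. In 8 of the 10 the lowest value of all 4 libraries was that of mCherry RNAi replicate 1, the library with the 19514 FPKM of enterocyte markers, and the same held for 51.8% of all tested genes. The exceptions, Su(var)2-HP2 and G9a, were lowest in mCherry RNAi replicate 2. The summed enteroendocrine markers were lower in both Piwi RNAi libraries, as given above. The part of either marker group in these values was not tested.

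**Figure D4:**
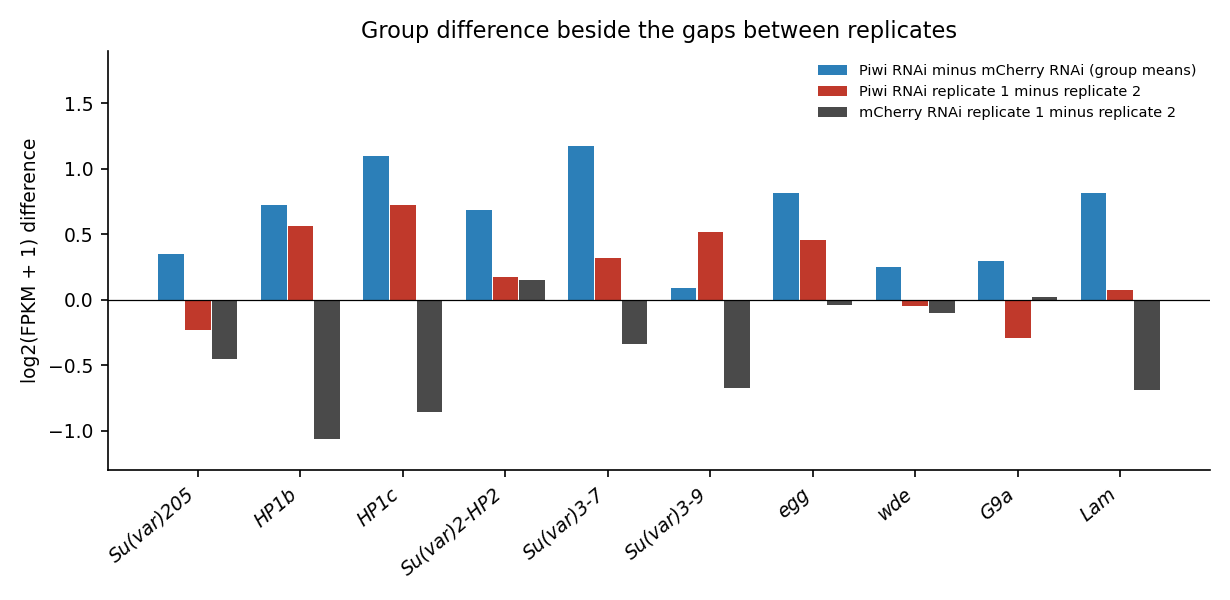
For each heterochromatin gene, the difference between group means on the log2(FPKM + 1) scale (blue, Piwi RNAi minus mCherry RNAi) beside the gap between replicates 1 and 2 in Piwi RNAi (red) and in mCherry RNAi (grey). HP1b, HP1c, Su(var)3-9 and Lam have mCherry RNAi gaps of −0.67 to −1.06, while the wde gaps are −0.04 and −0.10.

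Ratios of levels within a library do not depend on the scaling between libraries. FPKM is per transcript length, so the levels of different genes can be set side by side. The gene of HP1a was the highest of the 10 in every library, and its range of 98.5 to 159.3 FPKM did not meet that of any other. HP1b, Lam and wde followed, with ranges that overlapped each other, and from HP1c down through Su(var)2-HP2, Su(var)3-7, G9a, egg and Su(var)3-9 each range also overlapped the next. HP1a made up 63.9% and 76.3% of the summed level of the 3 HP1 genes in Piwi RNAi, against 80.8% and 73.2% in mCherry RNAi. Piwi RNAi replicate 1 had the smallest share, and the groups overlapped.

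HP1c stood at 39.6% and 34.5% of the level of HP1b in Piwi RNAi, against 28.2% and 25.8% in mCherry RNAi. This ratio was higher in both Piwi RNAi libraries even though HP1b itself overlapped. As a share of Su(var)205's level, HP1c was at 16.0% and 7.99% in Piwi RNAi, against 5.22% and 7.50% in mCherry RNAi. The groups were barely separate here, and the replicates of Piwi RNAi differed more than the groups did. Relative to its partner row, HP1c overlapped between the groups, at 63.7% and 41.1% in Piwi RNAi against 47.9% and 52.6% in mCherry RNAi.

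The level of egg was 41.7% and 28.5% of that of wde in Piwi RNAi, against 21.9% and 21.2% in mCherry RNAi. Set against egg, Su(var)3-9 was at 57.3% and 52.9% in Piwi RNAi and at 75.0% and 127.4% in mCherry RNAi. G9a was at 77.4% and 136.8% of egg in Piwi RNAi, against 161.4% and 153.0% in mCherry RNAi. Thus egg held a larger share beside each of the other writers and its own partner in both Piwi RNAi libraries. These 3 ratios all contain egg and are not independent. The mean log2 ratio of G9a to egg differed by −0.61 between the groups, less in size than the 0.82 between the Piwi RNAi replicates. For Su(var)3-9 to egg it differed by −0.83, beside 0.76 between the mCherry RNAi replicates, and the level of Su(var)3-9 is uncertain. For egg to wde it differed by 0.68, beside 0.55 between the Piwi RNAi replicates. How often the ratios of other gene pairs separate was not tested. Lam stood at 21.7% and 21.2% of LamC in Piwi RNAi, against 8.997% and 15.7% in mCherry RNAi, with groups that did not overlap. The mean log2 ratio of Lam to LamC differed by 0.85 between the groups, beside 0.80 between the mCherry RNAi replicates.

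**Figure D5:**
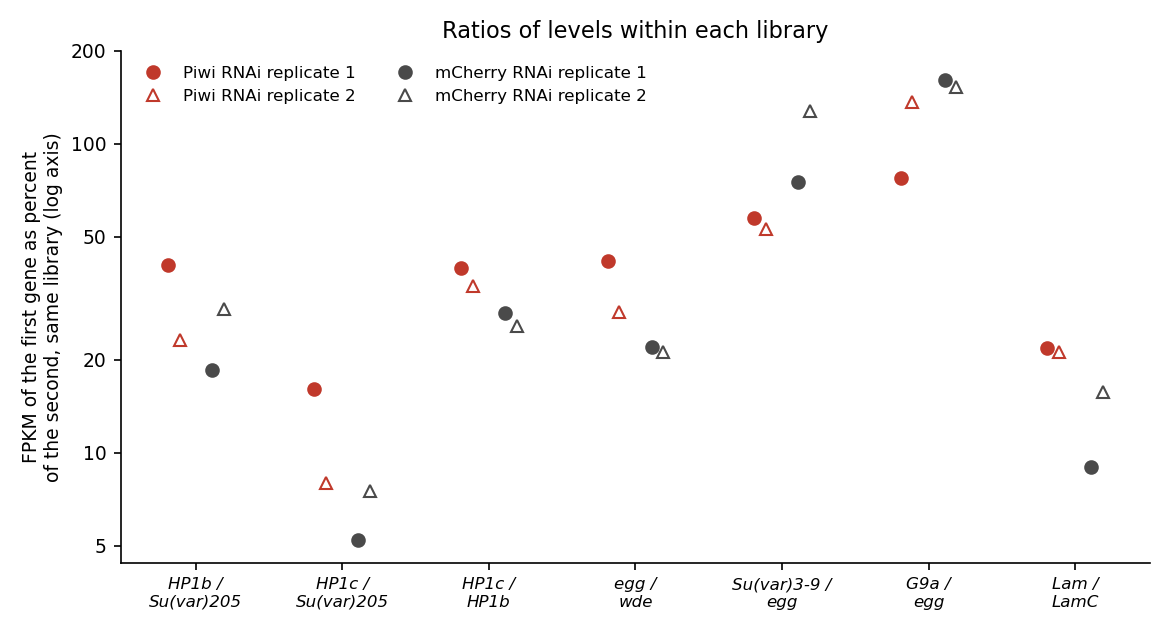
FPKM of the first gene as a percent of the second in the same library (log axis), Piwi RNAi in red and mCherry RNAi in grey, filled circles for replicate 1 and open triangles for replicate 2. The egg to wde ratio is 41.7% and 28.5% in Piwi RNAi against 21.9% and 21.2% in mCherry RNAi, and the ratio of HP1b to HP1a overlaps.

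Other genes of the pathway were read from 5 lists, none of which held a called gene. Of 19 HP1 partners and further paralogs, 14 were tested, 0 passed the limma test and 7 had an unadjusted p under 0.05, against 26.6% of all tested genes in either direction, with a median log2 difference of 0.69. After median of ratios scaling 4 of the 14 had such a p, against 17.7% of all tested genes, and the median was 0.30. Those with the smallest p were Ubqn, a ubiquitin receptor found with HP1c, at 1.18 (adjusted p = 0.0980), and XNP, the fly ATRX, at 0.76 (adjusted p = 0.149). The germline paralogs HP1e and rhi and the HP1-related HP6 were listed at 0 in every library. HP5, also an HP1a-binding protein, was singled out after its values were seen. It had 12.4 and 13.7 FPKM in Piwi RNAi, against 2.29 and 6.63 FPKM in mCherry RNAi, with a difference of 1.49 (adjusted p = 0.160).

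The 12 further chromatin genes, for enzymes that modify histones or remodel chromatin and for corepressors, had a median of 0.58. None passed by limma, and 3 had an unadjusted p under 0.05, against 26.6% of all tested genes. After median of ratios scaling 0 of the 12 had such a p, against 17.7% of all tested genes, and the median was 0.19. Sin3A, a corepressor scaffold, had a difference of 0.52 (adjusted p = 0.175) and the deacetylase HDAC3 had 0.67 (adjusted p = 0.181). The demethylases of H3K9, Kdm4A and Kdm4B, had differences of 0.84 and 0.44 and did not pass (adjusted p = 0.292 and 0.322). Of 9 proteins of satellites, insulators or other chromatin sites, 9 had positive differences, against 70.0% of all tested genes. Of these 0 passed by limma and 2 had an unadjusted p under 0.05, against 26.6%. Their median was 0.60, with 0.80 for Chro and 1.27 for Trl, the GAGA factor. With median of ratios scaling 7 of them had positive differences, against 49.4% of all tested genes. In that scaling 0 had such a p, against 17.7%, and the median was 0.21.

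Of 11 genes of the lamina, nuclear envelope and nuclear import 0 passed and 3 had an unadjusted p under 0.05, against 26.6% of all tested genes. Their median of 0.25 was below that of all tested genes. With median of ratios scaling the median of these 11 was −0.15 and 2 had such a p, against 17.7% of all tested genes. The farnesylated envelope protein gene kuk had 26.4 and 22.3 FPKM in Piwi RNAi, against 3.74 and 10.4 FPKM in mCherry RNAi. Its groups did not overlap, and its log2 difference was 1.78 ± 0.47 (adjusted p = 0.140), or 1.15 without mCherry RNAi replicate 1. The gap between mCherry RNAi replicates 1 and 2 was −1.26 on the log2(FPKM + 1) scale. The importin gene Fs(2)Ket had 0.86 (adjusted p = 0.167). In a list of piRNA pathway genes, 5 of 7 genes were tested and 0 passed. All 5 had an unadjusted p under 0.05, against 26.6% of all tested genes, with a median of 1.38. With median of ratios scaling 4 of the 5 had such a p, against 17.7% of all tested genes, and the median was 1.06. CG9754, the factor Panx that links Piwi to egg, had 1.38 and the helicase gene armi had 1.41, with adjusted p-values of 0.135 and 0.139.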

How the data were processed

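Per the labels' protocols, RNA of sorted intestinal stem cells was extracted with Trizol and TruSeq RNA libraries were made. The authors deposited a table of FPKM values with a column per library. The submitters' processing notes name TopHat and Cufflinks, and the column names match Cufflinks output, per the file headers. No source used here gives the versions, genome build, annotation, strand setting or any scaling between libraries, so no coordinates are printed. FPKM are not counts and were not tested as counts.

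From these values a limma-trend fit (lmFit, eBayes; limma 3.58.1, R 4.3.3) was run on log2(FPKM + 1), two-sided, over the 8313 of 15495 genes that averaged 1 FPKM or more, with Benjamini-Hochberg adjustment over all of them and a threshold of 0.05. This scale understates the change of low genes. Residual degrees of freedom were 2 and prior ones 2.86, and the fit was tested on simulated data. The libraries come from separate pools of guts per the labels. The p-values thus rest on the spread between pools, moderated toward that of other genes of similar level.

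Depth was estimated from genes with 1 annotated transcript of at least 800 nt, taking 130 nt off each length. Among low values, 85.7% to 88.4% then came within 0.1 of whole fragments (20% for evenly spread values). Fragment numbers rest on this estimate. Transcript lengths and exon overlaps came from Ensembl release 115 (Python 3.11.15).

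The genes, the 5 lists, the 4 marker lists and the tests were chosen with earlier results of these data known. All 10 genes are named. From each of the 5 lists the called genes and the 2 tested genes with the smallest p are named. Further genes were chosen after their values were seen. These were LamC, row, woc, Kdm4A, Kdm4B, HP5, wupA, TpnC47D, Tm1, up, vn, Dh31, CCHa1, CCHa2, CG13565 and the genes listed at 0. Hip and sov had no matching row. Marker lists are given by their levels. Lists were not tested as sets. The 13 alternatives were other pseudocounts, filters, scalings and moderation, the replicate number as a block, and each library left out.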

Additional observations from a re-analysis of the deposited data

How the results depend on the processing

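None of the 10 heterochromatin genes passed under any of the 13 alternatives, with a smallest adjusted p of 0.102 (limma; Su(var)3-7 with the filter at 5 FPKM) and 0 to 5 genes at an unadjusted p under 0.05. Of 130 gene values under the alternatives, 121 kept their direction and 9 reversed. With median of ratios scaling Su(var)205's value was −0.057, Su(var)3-9 at −0.24, wde at −0.14 and G9a at −0.069, and with quantile normalization Su(var)3-9 was at −0.089, wde at −0.12 and G9a at −0.097. With a library left out, Su(var)3-9 ran from −0.25 (without mCherry RNAi replicate 1) to 0.42 (without mCherry RNAi replicate 2), and was at −0.17 without Piwi RNAi replicate 1. The median of the 10 was 0.32 with median of ratios scaling and 0.34 with quantile normalization, where the all-gene medians were −0.01 and 0.10. It ran from 0.39 (without mCherry RNAi replicate 1) to 0.81 (without Piwi RNAi replicate 2) with a library left out. The count higher in every Piwi RNAi library, an alternative chosen after seeing the data, was 5 with median of ratios scaling, against 26.9% of all tested genes. It was 8 to 10 with a library left out, against 58.6% to 63.8%, since fewer libraries then have to separate.

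Over all tested genes, the 98 calls became 167 with the filter at 5 FPKM, 209 with robust eBayes, 35 with quantile normalization, 8 with median of ratios scaling, 4 without a trend, 0 with no filter and 0 with any library left out. The replicate numbers are not stated to pair the libraries. Same-numbered libraries deviated together at r = 0.25 across genes, and the replicate block gave 194 calls over all genes and 0 among the 10. Depth limits HP1c and Su(var)3-9 most.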
